A study of Mus musculus with 6 samples.

Results

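Inward rectifier and ATP-sensitive potassium channels were followed through 9 subunit genes, picked by symbol from the 48709 genes of the table: the Kir2 genes Kcnj2 and Kcnj12, the G protein-gated (GIRK) genes Kcnj3, Kcnj5 and Kcnj6, and the ATP-sensitive (KATP) genes Kcnj8, Kcnj11, Abcc8 and Abcc9. The choice used symbols and no measured value, although it was made with earlier results of these data known. All 9 passed the filter on low values. Hearts of C57BL6/J mouse embryos were sequenced as polyA RNA, with 3 libraries per genotype. Controls were RBPMS flox/flox RBPMS2 flox/flox littermates, and double knockouts carried the same floxed alleles and were positive for a Cre that the labels call XML Cre, described as cardiomyocyte-specific. Both groups therefore shared the floxed alleles, and no group had Cre without floxed alleles. The sources used here do not give the embryonic age, the promoter behind the Cre, or whether a library came from 1 animal or from pooled hearts, so p-values measure the spread between libraries.

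Inward rectifiers pass potassium more easily into the cell than out of it, which holds the resting membrane potential near the potassium equilibrium. Kir2 channels do so constitutively in working heart muscle. GIRK channels open when G protein beta-gamma subunits are released, as after acetylcholine binds the M2 receptor, and slow the atria and the sinus node; Kcnj3 and Kcnj5 encode the subunits of the usual cardiac channel. KATP channels join pore subunits (Kcnj8 or Kcnj11) to sulfonylurea receptors (Abcc8 or Abcc9), and close when ATP is plentiful.

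The pore-forming genes are related most closely around the potassium selectivity filter. A coding stretch of 42 bases is shown for 6 of them because it shows how far the members can be told apart by reads; the capitals mark the 9 bases that encode the signature triplet of the filter, as located in the longest open reading frame of the GENCODE M21 transcripts (GRCm38).
Kcnj2: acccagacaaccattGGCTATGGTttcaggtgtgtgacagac
Kcnj3: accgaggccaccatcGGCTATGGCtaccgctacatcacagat
Kcnj5: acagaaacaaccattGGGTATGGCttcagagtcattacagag
Kcnj6: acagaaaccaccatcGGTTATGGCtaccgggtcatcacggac
Kcnj8: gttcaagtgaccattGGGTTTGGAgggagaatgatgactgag
Kcnj11: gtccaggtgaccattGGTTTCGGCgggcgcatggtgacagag

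Of these 6, members of a class (GIRK or KATP pore) shared 29 to 33 of the 42 bases, and members of different classes 20 to 30. No window of 75 bases, the read length, was common to transcripts of any 2 members. The same held against all other annotated transcripts for 8 of the members, and in Abcc9 0.141% of windows also occurred in other genes. Reads of that length could thus be assigned to a member in this annotation. Antisense or overlapping annotations lay within Kcnj3, Kcnj6, Abcc8 and Abcc9, and those in the table were at 0 to 3 per library, except Gm26794 over the start of Kcnj3 (10 to 19 in controls, 7 to 11 in knockouts). Gm41505, an antisense gene over the end of Kcnj6, was not in the table, so its level is not known here. The sources used here do not say whether counting used strand.

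Library totals of the deposited values ran from 19770390 to 20215282. Rbpms was at 3551 to 3956 in controls and 670 to 721 in knockouts, and Rbpms2 at 2444 to 2716 against 1257 to 1676, so both targeted genes followed the labels. Xist was at 6 and 20 in control 3 and knockout 3 and at 19501 to 25229 elsewhere, so the libraries numbered 3 looked male and the other libraries female. Deviations from a gene's mean followed GC content differently in each library: Spearman's rho across 11905 genes was 0.22 to 0.40 in controls and 0.13, -0.18 and -0.59 in knockouts 1 to 3. Of the core cardiomyocyte markers, 1 of 12 rose and 2 fell, with a median log2 fold change of -0.11. In bulk hearts, fewer cells of a type and less RNA per cell cannot be told apart.

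The genotypes were compared over 26747 genes with limma on log2(value + 1), knockout minus control; a gene passed at a Benjamini-Hochberg adjusted p under 0.05. Of the 9 members, 3 fell (Kcnj5, Kcnj6 and Kcnj11) and 0 rose, where 2.55% of all tested genes fell and 2.31% rose (4.86% together). Control and knockout libraries did not overlap in 5 members, where they did not in 21.7% of all genes. The median log2 fold change was -0.54 over the members and 0.02 over all tested genes, with 6 members below 0 and 3 above. Without the robust option of the moderation, 2 members fell (Kcnj5 and Kcnj6), where 1.31% of genes passed. Among female-looking libraries alone, Kcnj6 was the member that passed, where 0.137% of genes did.

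**Figure D1:**
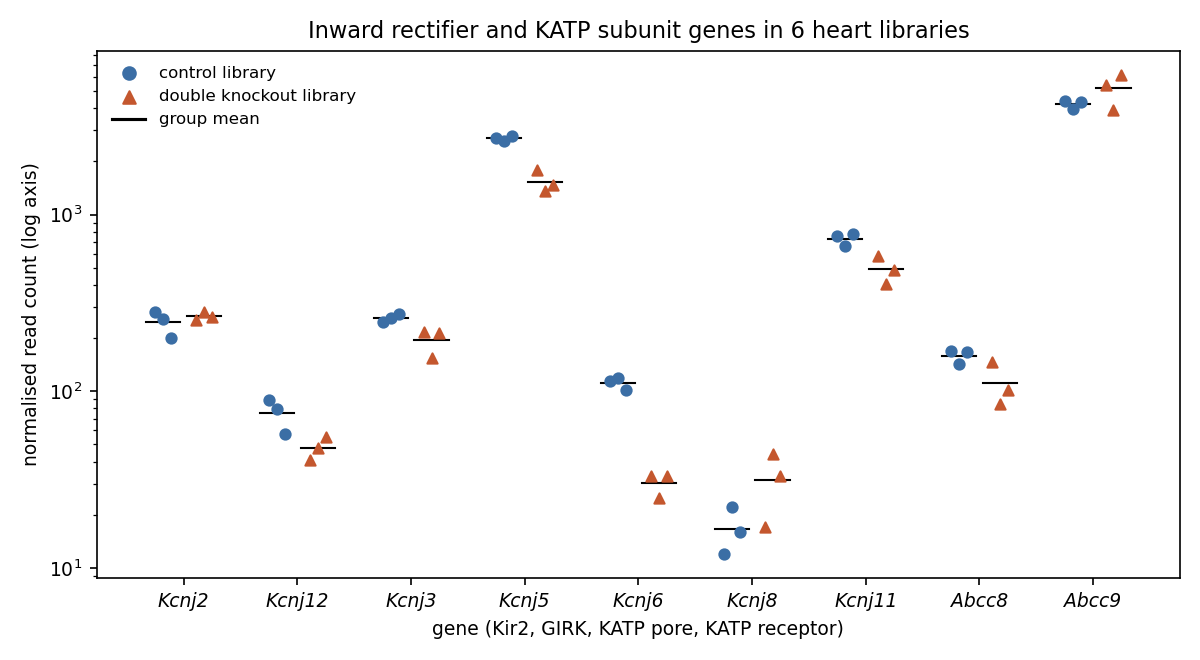
Normalised read count (log axis) of the 9 subunit genes; circles are control libraries, triangles double knockout libraries and lines group means (3 libraries each). Groups are separate for Kcnj12, Kcnj3, Kcnj5, Kcnj6 and Kcnj11, and overlap for Kcnj2, Kcnj8, Abcc8 and Abcc9.

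Kcnj5 encodes the GIRK subunit that, with that of Kcnj3, forms the acetylcholine-gated channel of the atria. It spans 32314707 to 32344350 on chromosome 9 (mm10, minus strand). Controls 1 to 3 held 2722, 2598 and 2779, and knockouts 1 to 3 held 1778, 1362 and 1467. Each knockout lay far below each control, and controls were tightly grouped. The mean fell from 2700 ± 92.5 to 1536 ± 216 (SD, n = 3), that is to 56.9% of control (log2 fold change -0.82 ± 0.10 SE, limma adjusted p = 2.60e-05). Leaving out any 1 library kept it past the threshold, at -0.93 to -0.74 with adjusted p up to 0.00334. Female-looking libraries alone gave -0.77 (limma adjusted p = 0.136), a fit with 2 libraries per genotype.

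Kcnj6 encodes a further GIRK subunit, best known from neurons, and was much scarcer. It spans 94748636 to 94997701 on chromosome 16 (mm10, minus strand). Controls were at 114, 119 and 102, and knockouts at 33, 25 and 33. The groups were far apart, and the knockouts close to each other. The mean fell from 112 ± 8.74 to 30.3 ± 4.62 (SD, n = 3), to 27.2% of control (-1.85 ± 0.19, limma adjusted p = 6.23e-06). It passed under all 18 alternatives, at -1.98 to -1.73, including female-looking libraries alone (limma adjusted p = 0.0355).

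Kcnj3, the partner of Kcnj5 in the atrial channel, spans 55435970 to 55598145 on chromosome 2 (mm10, plus strand). Values were 246, 261 and 274 in controls and 217, 154 and 213 in knockouts. All knockouts were below all controls, with knockout 2 the lowest. The log2 fold change of -0.43 ± 0.14 did not pass (limma adjusted p = 0.0786), while its own interval ran from -0.72 to -0.15 (95%, not adjusted for the number of genes). With the GC content and length trend of each library removed it was -0.52 and passed (limma adjusted p = 0.0238), and without knockout 2 it was -0.27 (limma adjusted p = 0.232).

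The 250 bases before the annotated start of the genes that fell most, Kcnj5 and Kcnj6, are shown in lower case from RefSeq (GRCm38.p6), at chr9:32344345-32344594 and chr16:94997697-94997946, both read on the minus strand.
Kcnj5 promoter: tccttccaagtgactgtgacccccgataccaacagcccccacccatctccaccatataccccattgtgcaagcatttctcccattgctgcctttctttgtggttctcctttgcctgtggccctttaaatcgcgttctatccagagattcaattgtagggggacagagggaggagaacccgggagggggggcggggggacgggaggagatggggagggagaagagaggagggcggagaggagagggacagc
Kcnj6 promoter: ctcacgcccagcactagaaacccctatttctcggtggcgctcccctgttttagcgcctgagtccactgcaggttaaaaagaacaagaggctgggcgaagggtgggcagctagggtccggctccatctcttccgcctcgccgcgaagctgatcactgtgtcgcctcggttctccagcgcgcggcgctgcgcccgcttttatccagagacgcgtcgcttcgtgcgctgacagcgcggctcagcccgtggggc

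Promoters were found for 7 of the 9 members, with Kcnj6 having a second one. Windows of 300 bases (250 before to 50 after a start) were searched on both strands for 5 motifs. These were AGATAA for GATA factors, CACGTG for E-box factors, AGGTGTGA for T-box factors, GGAAAA for NFAT and TATAAA for the TATA box. They occurred in 11.2%, 7.2%, 1.3%, 23.4% and 13.6% of 32851 such windows. None of these letters occurred in the windows of Kcnj3, Kcnj5, Kcnj6, Kcnj8 or Kcnj12. Kcnj2 held CACGTG and Abcc9 held GGAAAA, each once and with no overlap with another motif.

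**Figure D2:**
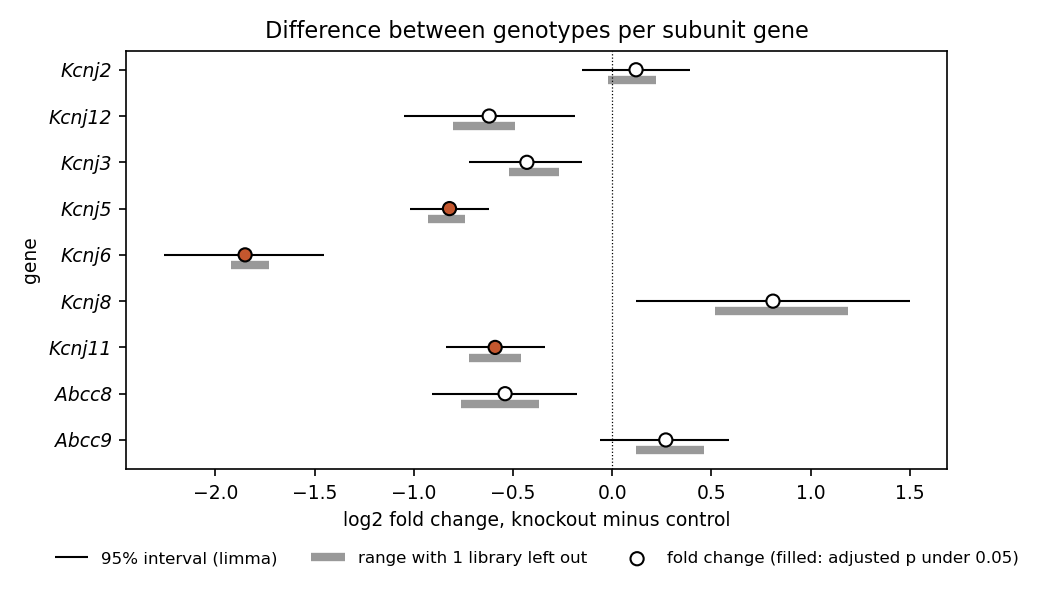
Log2 fold change (knockout minus control) of each subunit gene with its 95% interval from limma, and in grey the range when 1 library is left out; filled circles passed an adjusted p under 0.05. Kcnj6 lies at -1.85, Kcnj5 at -0.82 and Kcnj11 at -0.59, and the grey range of Kcnj2 crosses 0.

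The genes upstream of GIRK channels were taken as a list of 21 receptors, G protein subunits and regulators, all of them measured; 1 rose and 7 fell, with a median of -0.03. Of all tested genes 2.31% rose and 2.55% fell, the share to set beside the counts of this and the later lists, though it is not matched for abundance. The riser in this list was Chrm2, the M2 muscarinic receptor that opens the channel. Its values were 169, 265 and 185 in controls and 330, 418 and 441 in knockouts, so each knockout exceeded each control. It rose from 206 to 396 on average (0.96 ± 0.16, limma adjusted p = 0.00269), and held with each library left out, but not without the robust option (limma adjusted p = 0.0661). Adora1, the A1 adenosine receptor, which also opens the channel, fell: it was at 212, 241 and 248 in controls and 193, 150 and 105 in knockouts (-0.68, limma adjusted p = 0.0402). That call was lost without control 1, 2 or 3 or knockout 2 or 3. Of these receptors, Chrm2 thus changed against the direction of Kcnj5 and Kcnj6, and Adora1 with it.

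Gnao1, an inhibitory-class G protein alpha subunit, was at 1031, 1032 and 1097 in controls and 780, 591 and 659 in knockouts (-0.65 ± 0.10, limma adjusted p = 0.000571). Gnai2, another of that class, was at 6749, 6508 and 7152 against 5355, 4686 and 5029 (-0.44 ± 0.08, limma adjusted p = 0.00400). Rgs6, which speeds the shut-off of the cardiac GIRK current, was at 453, 426 and 446 against 362, 342 and 258 (-0.48 ± 0.12, limma adjusted p = 0.0268). In each of these genes all knockouts lay below all controls. The call of Gnai2 was lost without control 3 (limma adjusted p = 0.0548), and that of Rgs6 without controls 1, 2 or 3 or knockout 3 (up to 0.149). The beta and gamma subunit genes Gnb1, Gnb2, Gnb4, Gng2, Gng5, Gng10, Gng11 and Gng12 did not pass, while the beta subunit gene Gnb5 fell (531, 478 and 542 against 427, 396 and 389, -0.35, limma adjusted p = 0.0436). That call was lost without control 1, control 3, knockout 2 or knockout 3. Rgs4 and Rgs10, further regulators of G protein signalling, were the remaining genes that fell (limma adjusted p = 0.0393 and 0.0462), each losing its call when any of 5 libraries was left out. Among female-looking libraries alone, none of Chrm2, Gnao1, Gnai2 and Rgs6 passed (limma adjusted p = 0.237 to 0.407).

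**Figure D3:**
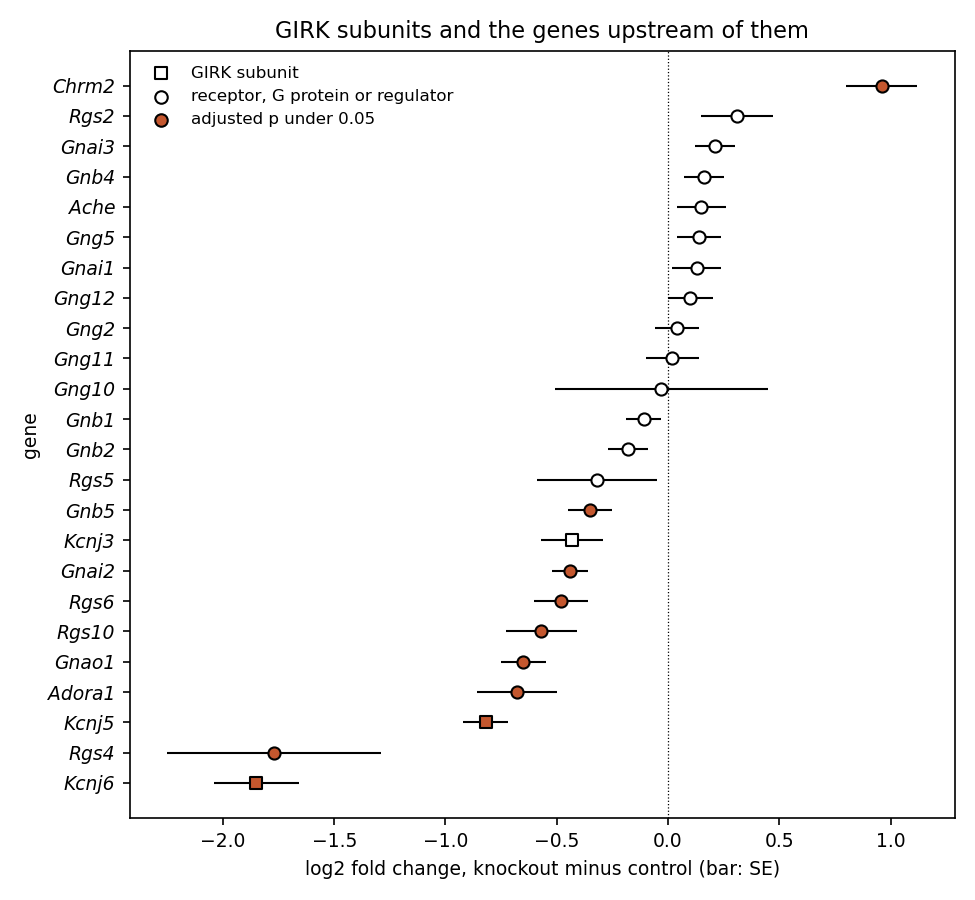
Log2 fold change (knockout minus control, bars are SE) of the 3 GIRK subunit genes (squares) and the 21 genes upstream of them (circles); filled symbols passed an adjusted p under 0.05. Chrm2, at 0.96, is the filled symbol to the right of 0.

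Markers of the cells in which GIRK channels are best known are given beside these results. Of 12 atrial markers 0 rose and 4 fell, with a median of -0.35, and their summed value was 79094 to 97489 in controls and 72876 to 77534 in knockouts. None was at 0 in every library, though Sln, a defining atrial gene, was at 1 to 16. Mybphl, an atrial myosin-binding protein gene, was at 422 to 559 in controls and 129 to 198 in knockouts (-1.50, limma adjusted p = 5.01e-05). Myl7, the atrial light chain, was at 20186 to 28200 against 12766 to 16545 (-0.74, limma adjusted p = 0.00226; 0.0669 without the robust option). The other fallers were Stard10 (-0.73, limma adjusted p = 0.00282) and Nr2f1 (-0.90, limma adjusted p = 0.00567). Their calls were lost without control 3, and that of Nr2f1 also without knockout 3. Nppa, the atrial natriuretic peptide gene, was at 6647 to 8727 in controls and 6996 to 9847 in knockouts.

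Of 10 sinoatrial and nodal markers 0 rose and 2 fell, with a median of -0.36 and sums of 8472 to 9747 against 5910 to 7501. Hcn4, the main pacemaker channel gene, was at 657 to 837 in controls and 294 to 447 in knockouts (-1.07, limma adjusted p = 0.000367), and Cacna1d was the other. Of the 10 markers, 7 lay below 0 and 3 above. The largest part of the sums was Cacna2d2, which did not pass (-0.81, limma adjusted p = 0.16). It was at 3452 to 4647 in controls and 1771 to 3158 in knockouts. Isl1 and Shox2, transcription factors of the sinus node, were at 2 to 14 and 12 to 22. Neuronal markers, looked at because of Kcnj6, summed to 1336 to 1505 in controls and 1015 to 1532 in knockouts; 0 of 10 rose or fell. The part of these cell types in the GIRK results was not tested.

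Kcnj11 encodes the KATP pore subunit of heart muscle cells and spans 46093953 to 46100764 on chromosome 7 (mm10, minus strand). Values were 753, 663 and 778 in controls and 580, 404 and 486 in knockouts. Every knockout was below every control, and knockout 2 was the lowest, as it was for Kcnj3, Kcnj5, Kcnj6 and Abcc8. The mean fell from 731 ± 60.5 to 490.0 ± 88.1 (SD, n = 3), to 67.0% of control (-0.59 ± 0.12, limma adjusted p = 0.00596). The call was lost without control 1 (limma adjusted p = 0.0568), control 3 (0.0657) or knockout 3 (0.0567), without the robust option (0.0977) and among female-looking libraries alone (0.398). With the GC content and length trend removed it was -0.47 and passed (limma adjusted p = 0.0175).

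Abcc8, the sulfonylurea receptor best known from pancreatic beta cells, lies 3758 bp from Kcnj11 on the same strand of chromosome 7, from 46104523 to 46180033. Its values were 168, 143 and 166 in controls and 147, 85 and 102 in knockouts. Knockout 1 fell inside the range of the controls and the other knockouts below it. The log2 fold change was -0.54 ± 0.18 (limma adjusted p = 0.0846; interval -0.91 to -0.18). Without knockout 2 it was -0.37 (limma adjusted p = 0.250). It passed without knockout 1 (-0.76, limma adjusted p = 0.0199) and with the replicate number as a block (limma adjusted p = 0.0388), which the numbers do not warrant as a pairing. Nomo1, the protein-coding gene on the other side of Kcnj11, had -0.17 (limma adjusted p = 0.373), and Ush1c, beyond Abcc8, had 0.44 (limma adjusted p = 0.109).

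The other KATP pair is likewise adjacent: Kcnj8 (142564837 to 142571614) and Abcc9 (142587862 to 142702315) lie 16247 bp apart on the minus strand of chromosome 6 (mm10). Kcnj8, the pore subunit of vascular smooth muscle and pericytes, was at 12, 22 and 16 in controls and 17, 44 and 33 in knockouts. These are few reads, and knockout 1 lay within the controls. The log2 fold change was 0.81 ± 0.33 (limma adjusted p = 0.183; interval 0.12 to 1.50). Abcc9, the receptor subunit of heart and smooth muscle, was at 4375, 3964 and 4350 in controls and 5447, 3887 and 6195 in knockouts. Knockout 2 was below every control and the other knockouts were above every control. The log2 fold change was 0.27 ± 0.15 (limma adjusted p = 0.367; interval -0.06 to 0.59), with 0.46 without knockout 2 (limma adjusted p = 0.00585) and 0.12 without knockout 3 (limma adjusted p = 0.679).

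Mural markers, which label the pericytes and smooth muscle cells around vessels, are given beside Kcnj8 and Abcc9. Of 12 markers 10 were tested, 1 rose (Mcam) and 2 fell (Acta2 and Cnn1), with a median of -0.45. The call of Mcam (0.36, limma adjusted p = 0.0395) was lost without control 1 or 3 or knockout 1, 2 or 3. It was also lost without the robust option (limma adjusted p = 0.156). The sum was 47761 to 51083 in controls and 19884 to 27375 in knockouts, and Acta2 was its largest part in controls. Cnn1 was at 4962 to 5401 in controls and 1156 to 2072 in knockouts. Tagln, which did not pass, was at 6545 to 7405 and 3620 to 6278. Myh11, the smooth muscle myosin gene of the list, was at only 13 to 26 in controls and 11 to 13 in knockouts and did not pass. Of the 10 tested markers, 2 lay above 0 and 8 below. Acta2, which embryonic cardiomyocytes also express, was at 24630 to 28547 in controls and 4673 to 6843 in knockouts, and Mcam at 5222 to 6094 and 6653 to 8457. Pdgfrb, a defining pericyte gene, was at 887 to 1207 and 983 to 1329; Rgs5 was at 30 to 35 and 17 to 38, Higd1b at 0 in every library and Vtn at 0 or 1. The part of these cells in the values of Kcnj8 and Abcc9 was not tested.

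Kcnj2 encodes the main Kir2 subunit of ventricular muscle (chromosome 11, 111066164 to 111076821, mm10, plus strand). It was at 280, 258 and 200 in controls and 253, 280 and 263 in knockouts. The knockouts lay within the range of the controls, of which control 3 was low. The log2 fold change was 0.12 ± 0.13 (limma adjusted p = 0.656; interval -0.15 to 0.39), and it changed sign without control 3 (-0.02) or with the GC content and length trend removed (-0.01). Kcnj12, the second Kir2 gene (chromosome 11, 61022564 to 61071131, mm10, plus strand), was at 89, 79 and 57 in controls and 41, 48 and 55 in knockouts. Knockouts lay below controls, but control 3 (57) and knockout 3 (55) were close. The log2 fold change was -0.62 ± 0.21 (limma adjusted p = 0.0961; interval -1.05 to -0.19), and it did not pass under any of the 18 alternatives.

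Balance between subunits was read within a library as the difference of log2(value + 1) between a pair of genes, for 6 pairs. Kcnj6 minus Kcnj5 was -4.57, -4.44 and -4.75 in controls and -5.71, -5.71 and -5.43 in knockouts, a shift of -1.03, so Kcnj6 was lower relative to Kcnj5 in each knockout. Kcnj3 minus Kcnj5 moved the other way, by 0.39, from -3.37 ± 0.08 to -2.98 ± 0.18 (SD, n = 3), so Kcnj3 was higher relative to Kcnj5. Kcnj11 minus Abcc9 was -2.54, -2.58 and -2.48 in controls and -3.23, -3.26 and -3.67 in knockouts, a shift of -0.85. The pore gene thus lost ground to the receptor gene in each knockout, knockout 2 included, although Abcc9 itself varied widely there.

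Abcc8 minus Abcc9 shifted by -0.81 and Kcnj12 minus Kcnj2 by -0.74, with no overlap of the groups in either. With the GC content and length trend removed, Kcnj12 minus Kcnj2 shifted by -0.49 (exact permutation p = 0.20). Kcnj8 minus Kcnj11 shifted by 1.40 with overlapping groups. An exact two-sided permutation test gave p = 0.10 for the 5 pairs without overlap, the smallest value that 3 against 3 allows, and p = 0.20 for Kcnj8 minus Kcnj11. After Benjamini-Hochberg adjustment over the 6 pairs these were 0.12 and 0.20, so this test could not pass 0.05 in this design.

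**Figure D4:**
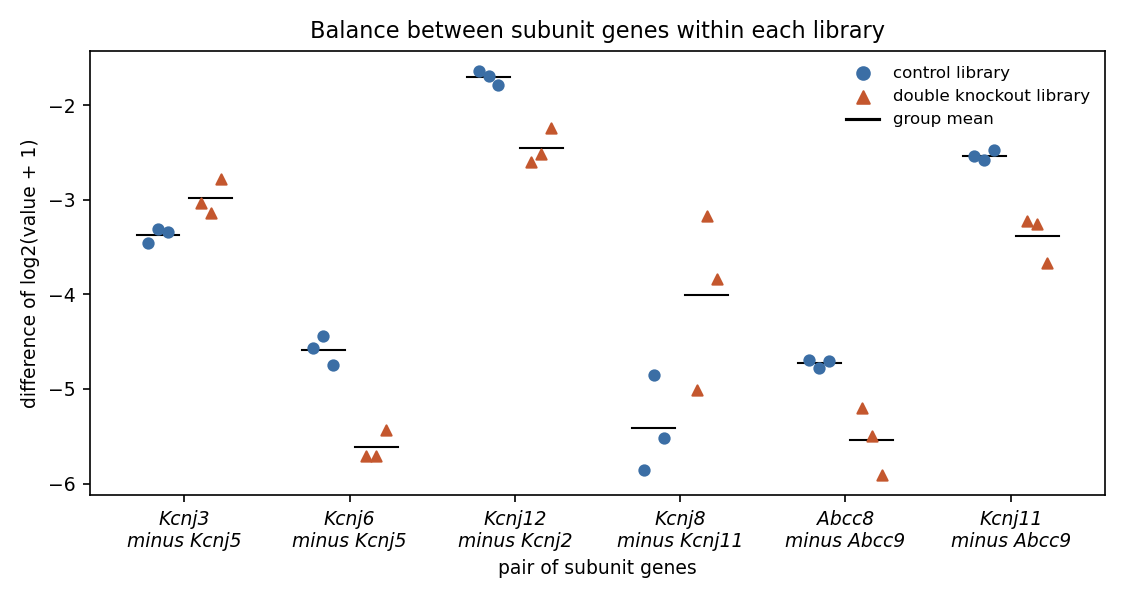
Difference of log2(value + 1) between 2 subunit genes within each library; circles are control and triangles double knockout libraries, lines are group means (3 libraries each). The groups are separate for 5 pairs and overlap for Kcnj8 minus Kcnj11.

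Levels of the members were compared per kilobase of annotated exon. In controls Kcnj5 (576 per kb) and Abcc9 (505 per kb) led, followed by Kcnj11 (199 per kb), Kcnj3 (49.9 per kb), Kcnj2 (45.2 per kb), Kcnj12 (27.3 per kb), Abcc8 (19.7 per kb), Kcnj6 (14.6 per kb) and Kcnj8 (6.54 per kb). Neighbours in this order overlapped for Kcnj3 and Kcnj2 and for Kcnj12 and Abcc8. In knockouts Abcc9 (618 per kb) stood above Kcnj5 (328 per kb) without overlap, and Kcnj6 (3.97 per kb) was last, below Kcnj8 (12.3 per kb). When the longest transcript was used as the length, Kcnj5 and Abcc9 overlapped in controls and Kcnj6 stood at 30.8 per kb there, level with Abcc8 and Kcnj12. The order among these scarce genes thus rests on the length assumed.

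On the level per kb of exon, Kcnj5 held 89.9% ± 0.469 of the GIRK total in controls and 88.8% ± 1.28 in knockouts (SD, n = 3), groups that overlapped. The share of Kcnj6 was 2.29% ± 0.245 and 1.08% ± 0.111, without overlap. Kcnj11 held 96.8% ± 1.20 of the KATP pore total in controls and 91.1% ± 4.76 in knockouts. Abcc9 held 96.3% ± 0.123 and 97.8% ± 0.521 of the receptor total. Kcnj11 thus made up most of the KATP pore total, and Abcc9 most of the receptor total, in both genotypes.

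Other Kir genes were scarce. All 8 listed were in the table and 5 were tested; 0 rose or fell. Kcnj4, a Kir2 gene, was the most abundant, at 31 to 46 in controls and 38 to 48 in knockouts, and Kcnj15 was at 16 to 30 and 18 to 23. Kcnj1, beside Kcnj5, was at 0 or 1, and Kcnj16, beside Kcnj2, at 2 to 5. Arhgap32 on the other side of Kcnj5 lay at 0.07 (log2) (limma adjusted p = 0.791), and Dyrk1a and Kcnj15, the neighbours of Kcnj6, had -0.03 and -0.05 (limma adjusted p = 0.891 and 0.947). No protein-coding neighbour of Kcnj5 or Kcnj6 passed.

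Scaffold and trafficking partners of Kir2 and KATP channels were mostly below the threshold: of 11 measured, 1 rose and 1 fell, with a median of -0.05. Cav3, the muscle caveolin, was at 1085, 909 and 1000 in controls and 629, 759 and 690 in knockouts (-0.53, limma adjusted p = 0.00282; 0.0550 without control 1 and 0.0562 without the robust option). Ehd3, an endosomal transport gene, was at 86, 109 and 134 against 198, 167 and 163 (0.70, limma adjusted p = 0.0169), a call lost without control 1, knockout 1 or knockout 3. Dlg1, which anchors Kir2 channels, and Ank2, which anchors Kir6.2, had -0.13 and -0.07 (limma adjusted p = 0.445 and 0.726). With the GC content and length trend removed, Dlg1 passed (limma adjusted p = 0.0264), as did Akap5 of the same list (0.0279), and Ank2 did not (0.499).

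Genes of the turnover of the lipid PIP2, needed by all inward rectifiers, or of protein kinase A and cyclic AMP signalling held 10 members. Of these 0 rose and 1 fell, with a median of -0.05. The list mixes lipid kinases with the lipid phosphatases Synj1 and Inpp5e, so its median has no single meaning for PIP2 supply. The faller was Pi4ka, a phosphatidylinositol kinase, at 2470 to 2520 in controls and 1534 to 2118 in knockouts (-0.48, limma adjusted p = 0.00781; lost without control 1, control 3 or knockout 3). Of 10 energy enzymes and regulators linked to KATP channels, 0 rose and 3 fell, with a median of -0.07. Ckm, muscle creatine kinase, was at 58 to 97 in controls and 17 to 30 in knockouts (-1.59, limma adjusted p = 0.000821; 0.0523 without the robust option). Gapdh (-0.32, limma adjusted p = 0.0330) and Tpi1 (-0.32, limma adjusted p = 0.0431) were the others. Their calls were lost without control 1, 2 or 3 or knockout 3, and that of Tpi1 also without knockout 1.

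The profile most like that of Kcnj6, the member with the lowest adjusted p, was sought among 13804 genes with a mean of at least 50, by Pearson's r of log2(value + 1) over the 6 libraries. Cyp2u1 (r = 0.9963), Gsg1l (r = 0.9959) and Rdh13 (r = 0.9946) came first. Cyp2u1 was at 104 to 117 in controls and 53 to 62 in knockouts. These points share libraries and fall into the 2 genotypes, and r is given as a description.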

How the data were processed

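The deposited table has 1 column per library (3 control, 3 double knockout) with gene identifiers and symbols. Per the labels' protocols, the stranded polyA preparation began from 500 ng of RNA, and single-end reads had 75 bp. Tools listed in the submitters' processing notes, without role or order, are STAR 2.4.2a, featureCounts 1.5.0, Trimmomatic, DESeq and DESeq2, and the build is mm10; the sources used here give neither the annotation nor the strand setting. The authors deposited a score that looks like read counts scaled per library and rounded to whole numbers. In some columns whole numbers are missing at even spacing, and the sources used here do not give the exact scaling. No count model was therefore used.

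Genes with a mean of at least 1 in a genotype (26747) were fitted with limma 3.58.1 (R 4.3.3) on log2(value + 1), using robust moderation and a variance trend, genotype as the only term, two-sided, Benjamini-Hochberg over all tested genes. SE and 95% intervals come from this fit. It was tested on simulated data. Positions, exon lengths and GC content came from GENCODE M21 (GRCm38), which held 99.3% of the identifiers, and promoters from RefSeq. Correlations across 13805 genes of deviations from the group mean were 0.05, 0.07 and 0.33 for libraries numbered 1, 2 and 3, so the numbers were not taken as pairs. No libraries were identical. The coding stretch of 1 pore-forming gene is not reported here.

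Members and the 14 gene lists were chosen with earlier results of these data known. All 9 members were named. The rule for other genes took from each list the 4 of lowest adjusted p among those that passed (otherwise the 2 most abundant). It also took the nearest protein-coding neighbours, the 3 genes most like the member of lowest adjusted p, and the targeted genes. Not every gene picked by this rule is described, and others were chosen after their values were seen. The 18 alternatives changed moderation, pseudocount, filter, scaling, weights, the GC content and length trend (splines of 5 degrees of freedom), a block and the libraries included.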

Additional observations from a re-analysis of the deposited data

How the results depend on the processing

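Of 162 values (9 members under 18 alternatives), 144 kept their direction and side of the threshold, 6 lost the call, 8 gained one and 4 reversed. All 4 reversals were of Kcnj2, which never passed: -0.02 without control 3 (0.22 at most with 1 library left out), and -0.01 without both libraries numbered 3, with the GC content and length trend removed, and with that and the replicate block. The number of members that passed was 3 of 9, 6 with no filter beyond a value above 0 in 1 library (1 higher and 5 lower), 1 without both libraries numbered 3, and between 2 and 4 with 1 library left out. Without that filter more genes passed in the whole table too, 1918 against 1299 in the main fit. The replicate block gave 4 members and 1355 genes, against 1299 genes without it; it added Abcc8 (limma adjusted p = 0.0388). Block and GC trend removal together gave 4 members and 1488 genes. Not every library correlated best with its own number. Over all genes, 350 passed without the robust option, 38 without both libraries numbered 3, and between 420 and 1253 with 1 library left out: 481 without control 1, 420 without control 3 and 496 without knockout 3. TMM factors were computed without weights. All 72 alternatives of the subunit balance kept their direction. With values of 12 to 44, Kcnj8 rests on few reads, and the part of counting error in its spread was not tested.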

Other observations

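Members were also set beside the remaining cell type lists. Of 12 ventricular markers 1 rose and 3 fell, with a median of 0.03. The riser was Gja1, connexin 43 (0.73, limma adjusted p = 0.000339). The fallers were Ckm (-1.59, limma adjusted p = 0.000821), Fhl2 (-0.38, limma adjusted p = 0.019) and Hand1 (-0.36, limma adjusted p = 0.0403). The calls of Fhl2 and Hand1 were lost without control 1 or 3 or knockout 2 or 3, and that of Hand1 also without knockout 1. Of 10 endothelial markers 1 rose, Emcn, an endothelial sialomucin gene (0.38, limma adjusted p = 0.0335), a call lost without controls 1, 2 or 3 or knockouts 2 or 3, and 0 fell. Epicardial and fibroblast markers had 0 of 10 past the threshold and a median of 0.00. Of 10 blood and immune markers 1 rose and 0 fell, with a median of 0.62, and 9 lay above 0 and 1 below. The riser was Ptprc, the leukocyte antigen gene, at 12 to 15 in controls and 30 to 35 in knockouts (1.24, limma adjusted p = 0.00910). Its call was lost without control 3 or knockout 3. Among core cardiomyocyte markers, Myh6 (-0.82, limma adjusted p = 1.68e-05) had the same log2 fold change as Kcnj5, Actc1 was at -0.52 (limma adjusted p = 0.000647; 0.0835 without the robust option) and Pln at 0.75 (limma adjusted p = 9.36e-05).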
